A study of Mus musculus with 8 samples.

Results

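The autophagy and lysosome genes described here are 32 genes chosen by name for their known roles. Each was measured through the transcript clusters (sets of array probes summarised as 1 value) annotated to that gene alone, taking the cluster with the highest mean over the arrays. All 32 were measured, among 19938 genes in all. The samples were gastrocnemius muscles, a mixed calf muscle, of 8 male mice aged 6 months, fed chow and fasted for 5 h before the muscle was taken. The 4 knockout mice, named Gcn5skm-/-, were Gcn5 L2/L2 (both copies of the Gcn5 gene, Kat2a, floxed) and HSAcre Tg/0, that is, they carried Cre driven by the human skeletal actin promoter. The 4 wild-type mice, named Gcn5skm+/+, were also Gcn5 L2/L2 but HSAcre 0/0, without Cre, so that the transgene's effects cannot be told apart from those of losing Gcn5. The promoter acts in muscle fibres, and other cells of the muscle keep Kat2a. Each animal gave 1 Affymetrix array, and values are log2 expression after RMA.

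In autophagy a membrane closes around cytoplasm, damaged organelles or protein aggregates and delivers them to the lysosome. The ULK kinase complex and a lipid kinase complex start the membrane, a ubiquitin-like system attaches ATG8 proteins to its lipid, receptors tie cargo to ATG8, and acid hydrolases of the lysosome break the cargo down. In skeletal muscle the pathway is known for supplying amino acids during fasting and for clearing worn mitochondria. TFEB and TFE3 switch on many of these genes, and Gcn5 has been reported to acetylate TFEB, so the comparison asks whether the transcripts of the pathway differ in muscle whose fibres lack Gcn5.

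Kat2a had a log2 level of 6.46 ± 0.03 in wild type and 5.79 ± 0.05 in knockout (SD, n = 4 each) and fell by 0.66 (SE 0.08, limma adjusted p = 0.0319). Fast-fibre genes were at high levels throughout, with list means of 11.98 to 12.07 per array. Array medians lay between 4.61 and 4.72. Some libraries stood apart. Wild type 2 correlated least with the rest (mean r over arrays 0.987) and was the highest of the 8 arrays for 24.6% of all genes. Knockout 4 had the lowest slow-fibre level (list mean 5.53, against 6.40 to 8.85 in the others) and the highest macrophage level (6.06, against 5.26 to 5.66). Where leaving out either array moved a difference or a list's median by over 1.5 times, the value without it follows.

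No autophagy or lysosome gene passed the test. Of the 32 members 0 reached an adjusted p under 0.05 (limma over all genes), and their adjusted p values lay between 0.861 and 0.997. Over all 19938 genes 3 passed, or 0.0150%, so that a count of 0 among 32 does not set the members apart. At an unadjusted p under 0.05 there was 1 member, Atg9a, lower in knockout, where 3.39% of all genes were lower and 2.34% higher at the same p. The groups did not overlap for 3 members, Atg9a and Atg13 lower and Bnip3l higher, against 2.14% of all genes lower and 1.48% higher.

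The measurements also bound how far the transcripts could have moved. The 95% intervals of all 32 differences lay within 1.5-fold in either direction, as did those of 95.6% of all genes. The widest reach downward was that of Wipi1, to 0.725 of the wild-type level, and the widest upward that of Ctsl, to 1.33-fold. These intervals are for single genes and are not adjusted for their number, and RMA is known to compress differences. Members were measured with a median SE of 0.0893, and 29 of the 32 had a smaller SE than the median gene (0.105).

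Small negative differences were the more common. 22 of the 32 members were lower in knockout and 10 higher, where 54.7% of all genes were lower. The median log2 difference was -0.06, beside -0.01 for all genes, and it was -0.03 without wild type 2. Averaged over the 32 members, the arrays lay at 7.86, 7.99, 7.86 and 7.93 in wild types 1 to 4 and at 7.87, 7.84, 7.84 and 7.94 in knockouts 1 to 4. The groups overlapped on this measure, with wild type 2 highest and knockout 4 next to it. The difference between the groups on this measure was -0.0386, and the SD of these means within groups was 0.0570. Knockout 4 was the highest array for 10 members, wild type 2 for 9 and wild type 4 for 8, where these arrays were the highest for 10.7%, 24.6% and 17.4% of all genes.

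**Figure D1:**
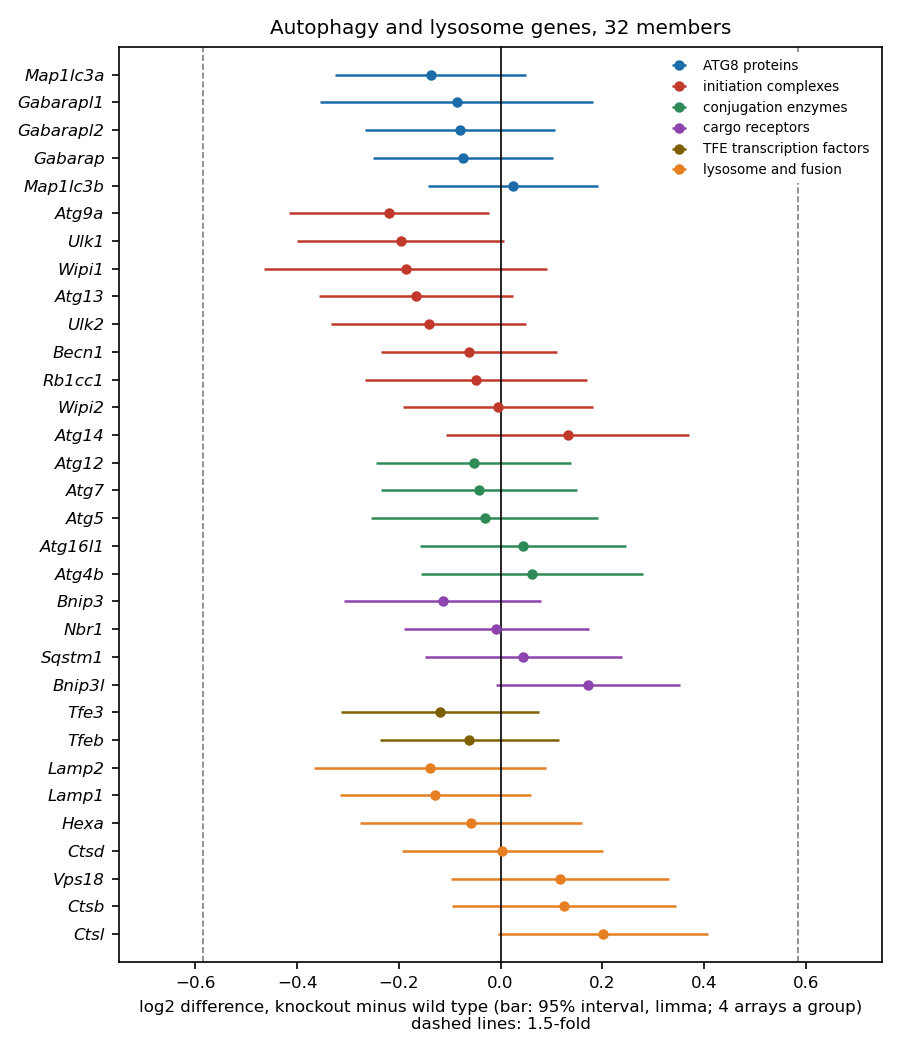
Log2 difference (knockout minus wild type, x axis) of each of the 32 genes with its 95% interval from limma (bars; 4 arrays a group), coloured by role; dashed lines mark a 1.5-fold change. All intervals lie inside the dashed lines, and that of Atg9a (-0.42 to -0.02) is the only one that does not cross 0.

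**Figure D2:**
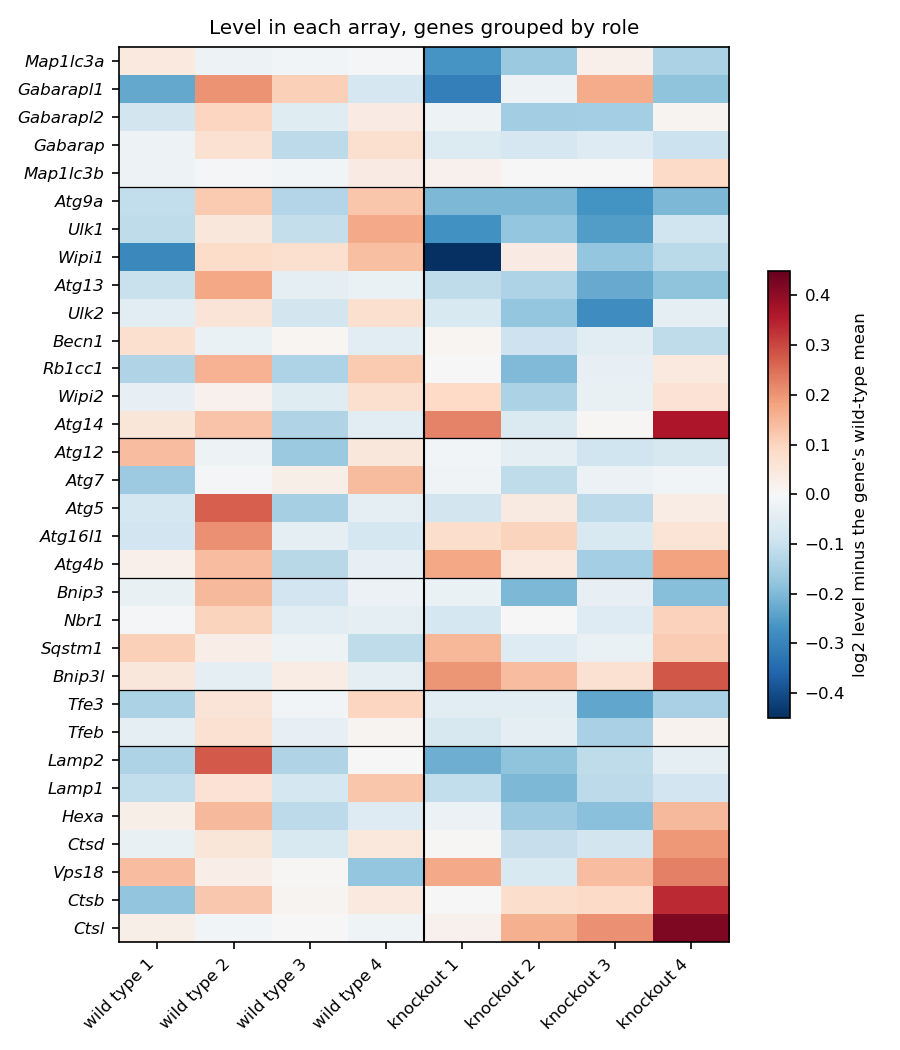
Level of each gene in each of the 8 arrays as the log2 difference from that gene's wild-type mean (red above, blue below), with genes grouped by role as in the plot of differences. Knockout 4 is the highest of the 8 arrays for 10 genes, among them Ctsl, Ctsb and Ctsd, wild type 2 for 9 and wild type 4 for 8.

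Tfeb and Tfe3 encode the basic helix-loop-helix factors that bind the CLEAR element, an E-box with the core CACGTG, in promoters of lysosomal and autophagy genes. Tfeb measured 6.80, 6.91, 6.81 and 6.86 in wild types 1 to 4 and 6.77, 6.80, 6.70 and 6.86 in knockouts 1 to 4 on the log2 scale. Tfe3 measured 5.79, 6.00, 5.93 and 6.04 in the wild types and 5.89, 5.89, 5.70 and 5.79 in the knockouts. For both genes the groups overlapped, and knockout 3 was the lowest array. Their log2 differences were -0.06 (95% interval -0.24 to 0.11) and -0.12 (-0.31 to 0.07), with limma adjusted p values of 0.936 and 0.887, and that of Tfeb was -0.04 without wild type 2. The arrays measure transcripts, so that acetylation or nuclear entry of these factors lies outside the data.

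RefSeq promoters (build GRCm38.p6, 250 bases before to 50 after a gene's start) were found for 25 of the 32 members, 29 promoters in all. Of those genes 7 held the core CACGTG (Atg5, Atg7, Atg14, Bnip3, Ctsd, Ctsl and Lamp1). By promoter, the core was in 7 of the 29, beside 7.15% of all 32851 promoters in the table. The longer form TCACGTG, searched on both strands and always overlapping the core, was in 4 of the 29 (Atg7, Atg14, Ctsd and Lamp1) and in 3.77% of all promoters. The core with GT before it and AC after it was in 0 members and 0.326% of promoters, and the forkhead motif GTAAACA, that of FoxO factors, in 0 members and 3.65%. The stretches around the core are shown for the 4 genes with the longer form and for Ctsl, the member with the highest positive difference; capitals mark CACGTG. The Atg14 stretch stops at the core, and the base that completes its longer form, read on the other strand, comes after the printed end. They are Lamp1 (chr8:13159073-13159160, + strand), Ctsd (chr7:142387893-142387952, - strand, and chr7:142388040-142388077, - strand), Atg7 (chr6:114670937-114670996, + strand), Atg14 (chr14:47568430-47568462, - strand) and Ctsl (chr13:64370724-64370770, - strand).
Lamp1: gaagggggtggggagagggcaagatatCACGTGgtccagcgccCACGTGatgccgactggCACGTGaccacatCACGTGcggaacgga
Ctsd, nearer site: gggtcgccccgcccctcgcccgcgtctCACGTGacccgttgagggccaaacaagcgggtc
Ctsd, farther site: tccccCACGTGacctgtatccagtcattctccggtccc
Atg7: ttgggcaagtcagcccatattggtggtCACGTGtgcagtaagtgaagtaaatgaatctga
Atg14: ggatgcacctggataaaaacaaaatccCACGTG
Ctsl: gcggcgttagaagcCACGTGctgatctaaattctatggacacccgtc

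Lamp1 held 4 cores, starting at -61, -45, -28 and -15 relative to the gene's start, and Ctsd held 2, at -98 and -245. These E-box genes did not share a direction. Their log2 differences were -0.13 for Lamp1, 0.0033 for Ctsd, -0.04 for Atg7, -0.03 for Atg5, 0.13 for Atg14, -0.11 for Bnip3 and 0.20 for Ctsl. The median was -0.03 for these 7 and -0.08 for the 18 members whose promoters lacked the core. Without wild type 2 the median of the 7 was 0.02, the value of Ctsd, and without knockout 4 it was -0.05, the value of Atg5. That of the 18 lay between -0.05 (Gabarapl2) and -0.04 (Tfeb) without wild type 2. These medians are a description only, since a match is not a bound site.

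The 5 lowest differences among the members were those of initiation genes (Atg9a, Ulk1, Wipi1, Atg13 and Ulk2), although none passed. Lamp2 and Map1lc3a, which have other roles, came next and were nearly level with Ulk2 (-0.139 and -0.138, beside -0.142). Of the 9 initiation genes 8 were lower in knockout, where 54.7% of all genes were lower. Their median log2 difference was -0.14, and the differences ran from -0.22 to 0.13. Of the 25 other genes of autophagosome formation, described below, 12 were higher and 13 lower. Atg9a encodes the membrane-spanning lipid scramblase whose vesicles seed the autophagosome. It measured 8.24, 8.47, 8.22 and 8.48 in wild types 1 to 4 and 8.15, 8.15, 8.08 and 8.15 in knockouts 1 to 4. Every knockout lay below every wild type, and the wild types were spread over a wider range than the knockouts. The log2 difference was -0.22 (SE 0.09, 0.859 of the wild-type level, unadjusted p = 0.0319, limma adjusted p = 0.861). Without wild type 2 it was -0.18, and without knockout 4 -0.23. The unadjusted p was under 0.05 without wild type 1 or wild type 3 and above it without any 1 of the other 6 arrays.

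Atg13 encodes the adaptor that joins the ULK kinases to FIP200. It measured 8.26, 8.53, 8.31 and 8.33 in the wild types and 8.24, 8.22, 8.13 and 8.17 in the knockouts. The groups did not overlap, but wild type 1 and knockout 1 were nearly equal, and the difference of -0.17 (limma adjusted p = 0.869) was -0.11 without wild type 2, the highest array. Ulk1, the kinase that starts autophagy and is restrained by mTORC1, measured 7.74 ± 0.14 in wild type and 7.54 ± 0.08 in knockout, a difference of -0.20 (limma adjusted p = 0.862). Wild types 1 and 3 (7.62 and 7.63) lay below knockout 4 (7.65), so the groups overlapped. Its relative Ulk2 measured 8.50 ± 0.08 and 8.36 ± 0.11 (difference -0.14, limma adjusted p = 0.876).

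The other initiation genes, apart from Becn1 (difference -0.0615, within-group SD 0.0541), varied as much within groups as between them. Wipi1, which binds the phosphoinositide of the growing membrane, ranged from 7.09 to 7.51 in wild type and from 6.88 to 7.41 in knockout (difference -0.19, limma adjusted p = 0.877), the largest within-group SD of the members (0.209). Its relative Wipi2 differed by -0.0050, by 0.0014 without wild type 2 and by -0.03 without knockout 4. Becn1, which encodes beclin 1 of the lipid kinase complex, differed by -0.06, and Rb1cc1, which encodes the ULK scaffold FIP200, by -0.05. Without wild type 2 the difference of Rb1cc1 was 0.0039, and without knockout 4 it was -0.08. Atg14, the subunit that brings the lipid kinase to the site of autophagosome formation, was the sole initiation gene with a positive difference (0.13, limma adjusted p = 0.904). It stood at 5.87 in knockout 4 and 5.73 in knockout 1, and without knockout 4 the difference was 0.05.

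Slow-fibre levels varied widely between arrays, and most initiation genes were higher in the wild types where they were high. The slow-fibre list mean was 8.27 and 8.18 in wild types 2 and 4 and 6.40 and 6.60 in wild types 1 and 3. Of the 9 initiation genes 7, all but Becn1 and Atg14, were also higher in wild types 2 and 4 than in wild types 1 and 3. This order was not particular to initiation genes. The mean over all 32 members was 7.99 and 7.93 in wild types 2 and 4 and 7.86 in both wild types 1 and 3. Wild types 2 and 4 were the highest arrays for 24.6% and 17.4% of all genes. Among the knockouts the slow-fibre mean was highest in knockouts 2 and 3 (8.48 and 8.85) and lowest in knockout 4. Knockout 4 was the highest knockout for Ulk1, Ulk2, Rb1cc1 and Atg14 and the lowest for Becn1. Knockout 2 was the highest for Wipi1 and, nearly level with knockouts 1 and 4, for Atg9a. Knockout 1 was the highest for Atg13, Becn1 and Wipi2. 7 of the 10 slow-fibre genes were higher in knockout and 3 lower, 0 at an unadjusted p under 0.05. The part of fibre type in the initiation genes' differences was not tested.

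**Figure D3:**
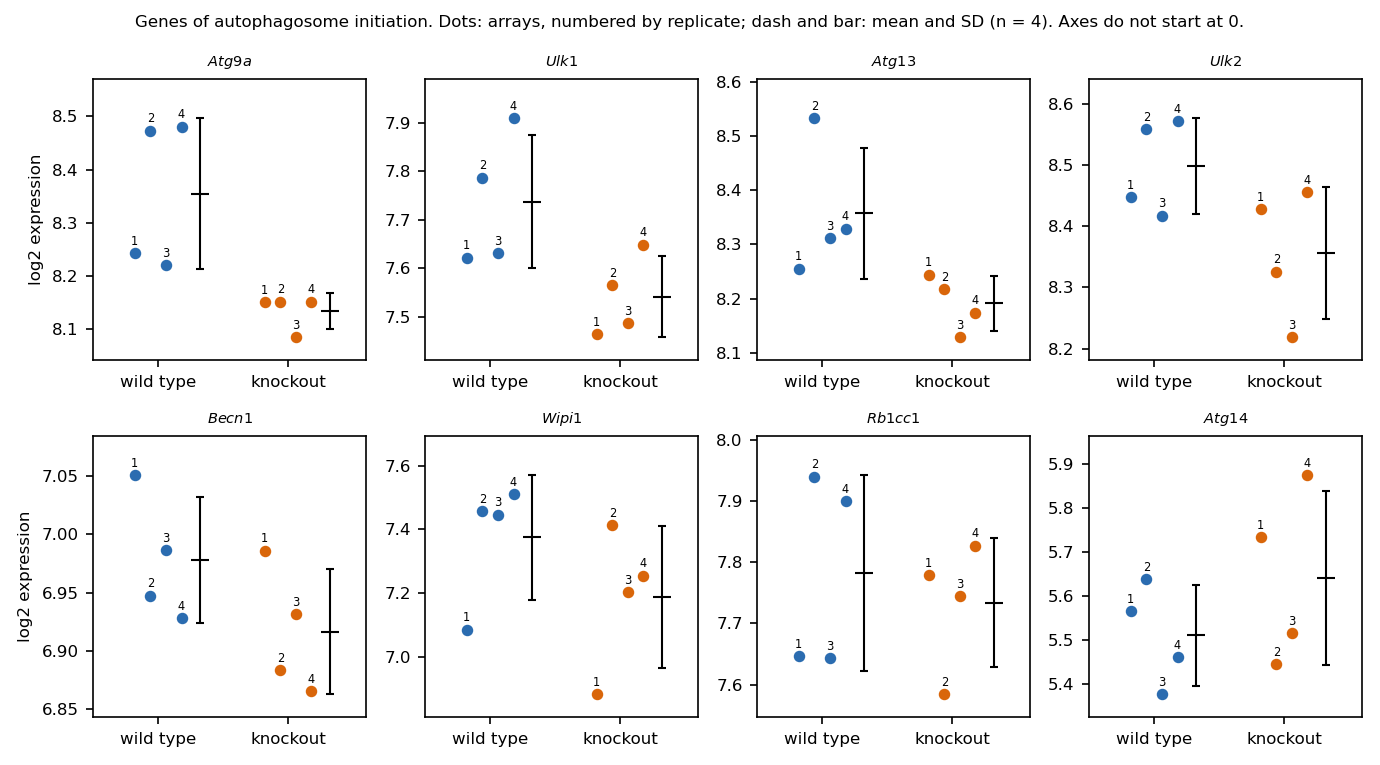
Log2 expression of 8 genes of autophagosome initiation in each array (dots, numbered by replicate), with the mean and SD of each group (n = 4). The groups separate for Atg9a and Atg13 and overlap for the other 6; for Atg9a wild types 2 and 4 (8.47 and 8.48) stand above wild types 1 and 3 (8.24 and 8.22).

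The conjugation enzymes differed little on either side of 0. Atg7 activates the ubiquitin-like proteins, Atg5, Atg12 and Atg16l1 form the complex that sets ATG8 onto lipid, and Atg4b is the protease that trims and recycles ATG8. Their log2 differences were -0.04 for Atg7, -0.03 for Atg5, -0.05 for Atg12, 0.04 for Atg16l1 and 0.06 for Atg4b, with limma adjusted p values from 0.947 to 0.978. Both groups overlapped for each of the 5, and all 5 intervals lay between -0.26 and 0.28. Atg5 stood at 5.91 in wild type 2 against 5.49 to 5.68 in the other arrays, and its difference without that array was 0.06, of the opposite sign (-0.05 without knockout 4). Without wild type 2 the differences of Atg4b and Atg16l1 were both 0.11, and that of Atg4b was 0.02 without knockout 4.

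ATG8 proteins coat the autophagosome and are used up with its contents. Map1lc3b, which encodes LC3B, the usual marker of autophagosomes, was the steadiest of the 32 members, with a within-group SD of 0.0348. It measured 9.40, 9.42, 9.41 and 9.46 in wild types 1 to 4 and 9.44, 9.42, 9.42 and 9.51 in knockouts 1 to 4. The difference was 0.02 (95% interval -0.14 to 0.19, limma adjusted p = 0.978), and 0.0045 without knockout 4. Map1lc3a, for LC3A, measured 7.91, 7.85, 7.86 and 7.86 in the wild types and 7.60, 7.70, 7.89 and 7.73 in the knockouts. Knockout 3 lay among the wild types while the other knockouts lay below them, and the difference was -0.14 (limma adjusted p = 0.876).

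The GABARAP branch of the family was close to even between genotypes. Gabarap measured 10.39, 10.48, 10.29 and 10.48 in the wild types and 10.35, 10.34, 10.35 and 10.31 in the knockouts, which fell inside the wild-type range. Gabarapl1, a FoxO target in muscle, measured 7.66, 8.09, 7.997 and 7.81 in the wild types and 7.58, 7.87, 8.06 and 7.71 in the knockouts, with a within-group SD (0.198) wider than its difference of -0.09. That difference was -0.02 without wild type 2 and -0.05 without knockout 4. Gabarapl2 measured 10.13, 10.31, 10.16 and 10.25 in the wild types and 10.19, 10.06, 10.06 and 10.23 in the knockouts. The differences of Gabarap and Gabarapl2 were -0.07 and -0.08 (-0.05 for Gabarapl2 without wild type 2), and limma adjusted p values of the 3 genes lay between 0.930 and 0.939.

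Cargo receptors were split in direction. Sqstm1 encodes p62, which links ubiquitinated cargo to ATG8 and is itself degraded with it. Its transcript measured 10.82, 10.75, 10.69 and 10.60 in the wild types and 10.87, 10.66, 10.69 and 10.83 in the knockouts. The groups overlapped, and the difference was 0.04 (95% interval -0.15 to 0.24, limma adjusted p = 0.959), or 0.02 without knockout 4. Nbr1, a second receptor for ubiquitinated cargo, differed by -0.0082, by 0.02 without wild type 2 and by -0.05 without knockout 4. The protein levels of p62 and lipid-bound LC3, by which autophagic flux is judged, are not measured by arrays.

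Bnip3 and Bnip3l encode related outer mitochondrial membrane proteins that mark mitochondria for autophagy. Bnip3l measured 10.67, 10.57, 10.65 and 10.58 in wild types 1 to 4 and 10.82, 10.76, 10.69 and 10.90 in knockouts 1 to 4. Every knockout lay above every wild type, knockout 3 by a small margin, and the difference was 0.17 (SE 0.08, 1.13-fold, unadjusted p = 0.0596, limma adjusted p = 0.869). Bnip3 measured 9.66 ± 0.10 in wild type and 9.54 ± 0.10 in knockout, a difference of -0.11 (limma adjusted p = 0.900), with overlapping groups, and -0.07 without wild type 2.

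The array carries 2 clusters for Bnip3l, Bnip3, Gabarapl2 and Map1lc3b, and they did not always give the same picture. For 29 of the 32 members most of the nearest named clusters by number, up to 10 on each side, belong to genes on the member's own chromosome. For the cluster used for Bnip3l, 19 of the 20 nearest named clusters belong to genes on chromosome 12, although the gene lies on chromosome 14. The same holds for Bnip3 (used cluster among genes of chromosome 14, gene on chromosome 7) and Gabarapl2 (chromosome 5, gene on chromosome 8). In the cluster numbered among genes of its own chromosome, Bnip3l measured 10.34, 10.44, 10.34 and 10.28 in the wild types and 10.47, 10.38, 10.38 and 10.56 in the knockouts. There the groups overlapped and the difference was 0.10 (unadjusted p = 0.267, limma adjusted p = 0.905 over the 21789 clusters with 1 gene symbol). For Bnip3 the clusters gave -0.11 and -0.14, and for Map1lc3b 0.02 and 0.06. The own-chromosome cluster of Gabarapl2 lists no RefSeq transcript and was dim, with means of 4.00 ± 0.66 and 3.73 ± 0.28. What sequence the other clusters read was not tested, and signals of near-identical copies of a transcript cannot be told apart on the array.

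**Figure D4:**
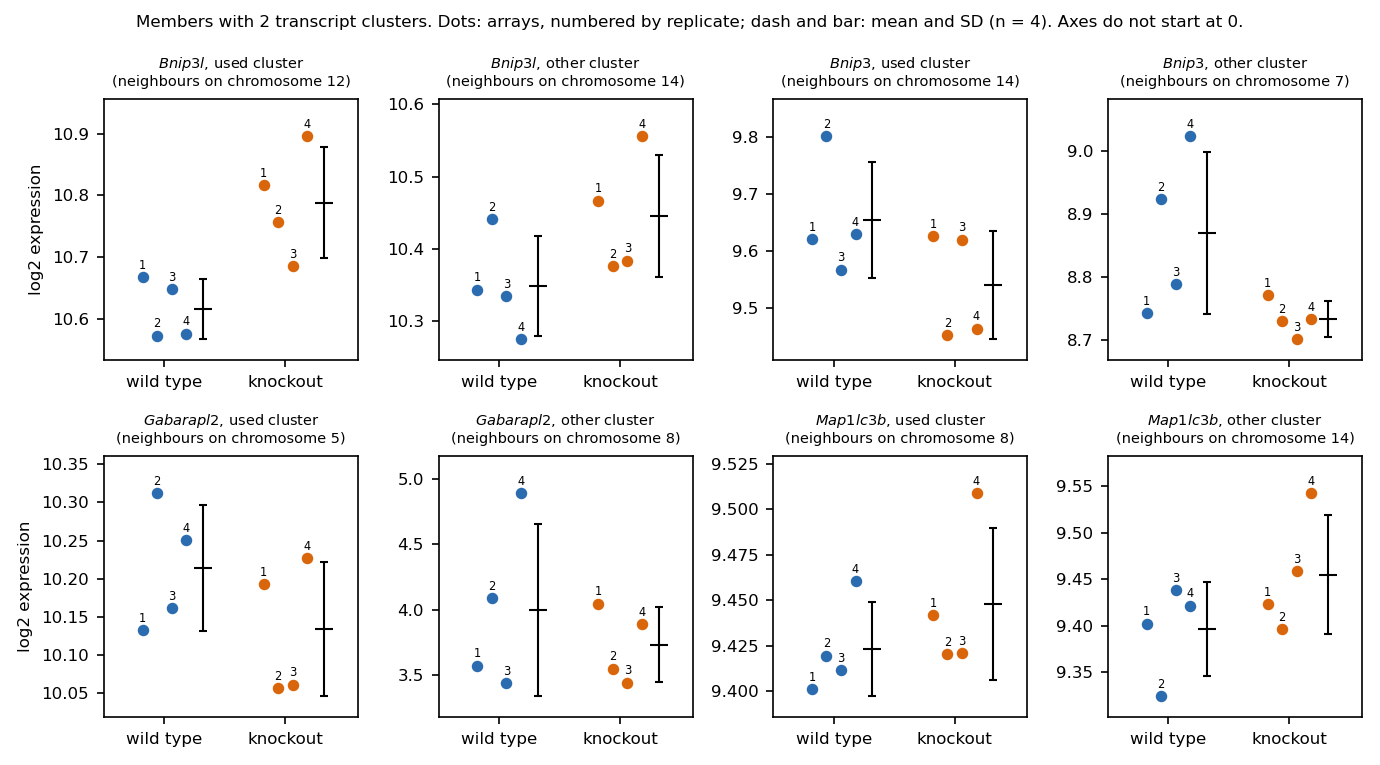
Log2 expression in each array (dots, numbered by replicate; dash and bar show mean and SD, n = 4) from both transcript clusters of 4 genes, with the chromosome of the clusters numbered next to each. Bnip3l separates the groups in the cluster used (lowest knockout 10.69, highest wild type 10.67) and not in the cluster of its own chromosome.

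Lysosomal members included the largest positive difference, and here knockout 4 stood out. Ctsl encodes cathepsin L, a cysteine protease that rises in many forms of muscle wasting. It measured 8.07, 8.03, 8.05 and 8.03 in wild types 1 to 4 and 8.06, 8.21, 8.25 and 8.46 in knockouts 1 to 4. The wild types were nearly identical, knockout 1 lay among them and the other knockouts above. The difference was 0.20 (SE 0.10, 1.15-fold, unadjusted p = 0.0559, limma adjusted p = 0.861), and 0.13 without knockout 4.

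Ctsb and Ctsd, for the lysosomal proteases cathepsin B and cathepsin D, were also highest in knockout 4. Ctsb measured 8.83, 9.13, 9.02 and 9.05 in the wild types and 9.01, 9.09, 9.10 and 9.34 in the knockouts. Ctsd measured 10.03, 10.11, 9.99 and 10.11 in the wild types and 10.06, 9.96, 9.98 and 10.25 in the knockouts. Apart from knockout 4, the knockouts lay within the wild-type range for Ctsb, and in Ctsd knockouts 2 and 3 lay below every wild type. The differences were 0.12 and 0.0033 (limma adjusted p = 0.903 and 0.997), and without knockout 4 they were 0.05 and -0.06. Without wild type 2 the difference of Ctsd was 0.02.

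Membrane proteins of the lysosome had negative differences. Lamp1 measured 10.07, 10.24, 10.10 and 10.30 in the wild types and 10.07, 9.98, 10.06 and 10.09 in the knockouts. Lamp2, whose loss causes the muscle disease Danon disease, measured 8.24, 8.65, 8.24 and 8.38 in the wild types and 8.16, 8.20, 8.26 and 8.34 in the knockouts. Wild types 2 and 4 were the highest arrays for both genes, and for Lamp2 wild types 1 and 3 lay among the knockouts. For Lamp1 wild type 1 lay among them and wild type 3 (10.10) just above the highest knockout. The differences were -0.13 for Lamp1 and -0.14 for Lamp2 (limma adjusted p = 0.876 and 0.889), and that of Lamp2 was -0.05 without wild type 2. Hexa, a subunit of the glycolipid hydrolase hexosaminidase, differed by -0.06, and Vps18, of the tethering complexes that bring vesicles to the lysosome, by 0.12 (limma adjusted p = 0.949 and 0.908). The difference of Hexa was -0.0091 without wild type 2 and -0.13 without knockout 4.

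Lysosomal proteases are abundant in macrophages, and macrophage markers mostly had positive differences. Of 22 markers 20 were higher in knockout, where 54.7% of all genes were lower. Their median log2 difference was 0.20 (0.15 without knockout 4), and 0 passed (smallest limma adjusted p 0.611). At an unadjusted limma p under 0.05 there were 7 higher and 0 lower, against 2.34% and 3.39% of all genes. Among the 7 was Ctss, a lysosomal protease that is also counted with the further hydrolases below. The mean of the markers per array lay between 5.26 and 5.41 in wild type and between 5.41 and 6.06 in knockout. Knockout 4 was the highest array for 11 of the 22, and for 10.7% of all genes. Cd68, a lysosomal membrane protein of macrophages, measured 5.33 to 5.68 in wild type and 5.70, 5.74, 6.18 and 7.35 in knockouts 1 to 4. Gpnmb, which marks lipid-laden macrophages, measured 5.21 to 5.47 in wild type and 5.52, 5.32, 6.60 and 9.09 in the knockouts. C1qb, a complement subunit made by macrophages, differed by 0.42 (limma adjusted p = 0.733). Lgals3 (galectin 3) reached 7.75 in knockout 4, while the resident macrophage receptor Cd163 was lowest there (4.22). The scale has no true 0, and the marker with the lowest mean lay at 3.33. In bulk muscle, more cells of a type and more RNA per cell cannot be told apart, and the part of macrophages in the cathepsin values was not tested.

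**Figure D5:**
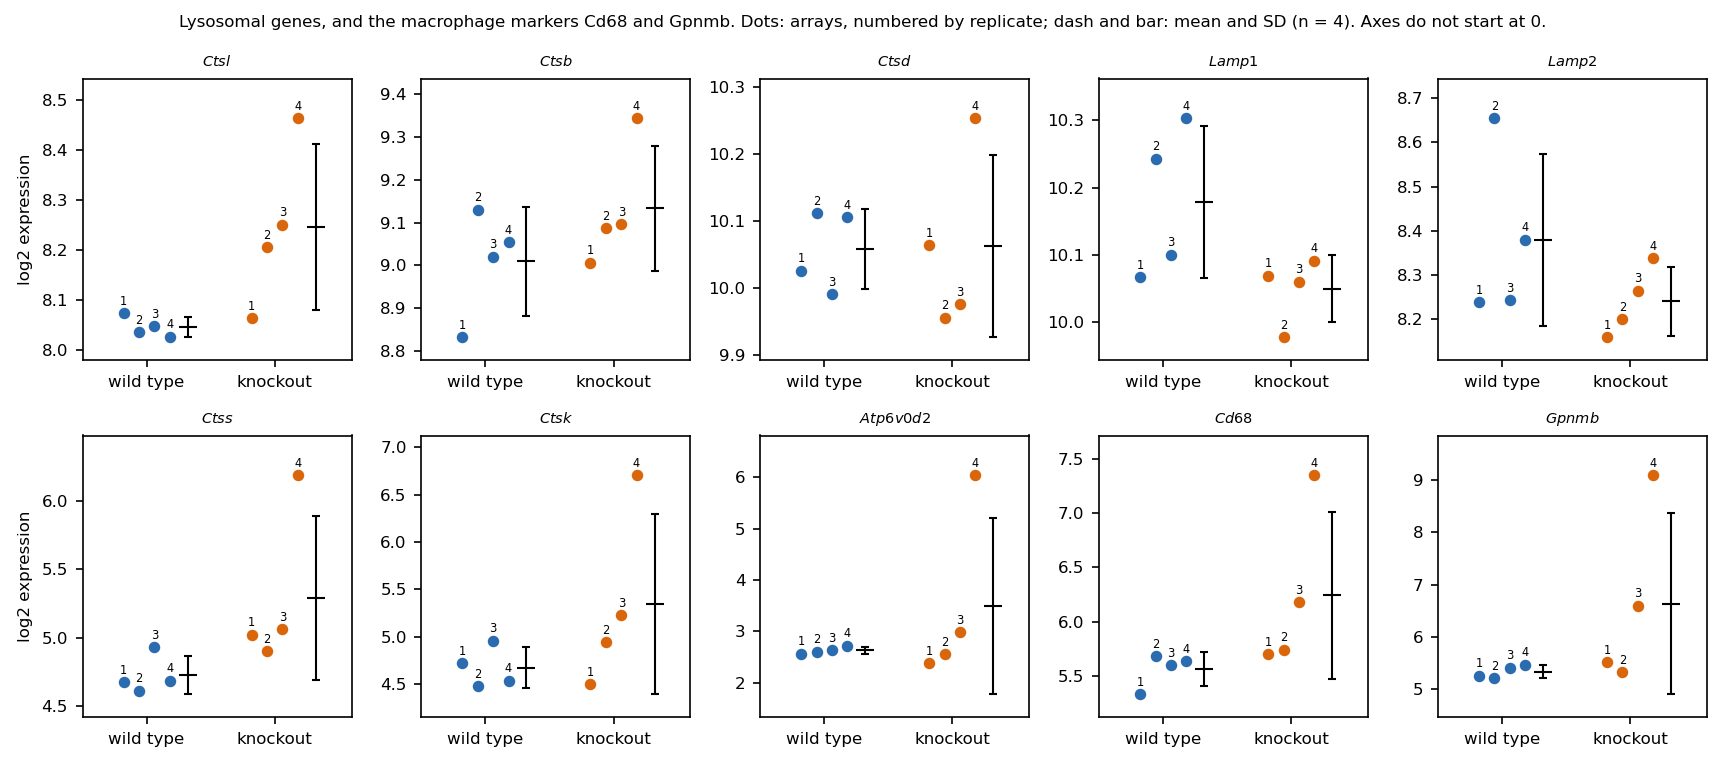
Log2 expression in each array (dots, numbered by replicate; dash and bar show mean and SD, n = 4) of 5 lysosomal members (top row), of Ctss, Ctsk and Atp6v0d2, and of the macrophage markers Cd68 and Gpnmb. Knockout 4 is the highest array for Ctsl, Ctsb and Ctsd and for all 5 genes of the bottom row, and for neither Lamp1 nor Lamp2; Ctsk and Atp6v0d2 were picked for display after their values were seen.

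Beyond the 32 members, 164 of 175 further genes of the pathway, listed by role, were measured. Of these 0 passed over all genes (smallest limma adjusted p 0.780), and at an unadjusted p under 0.05 there were 2 higher and 3 lower, against 2.34% and 3.39% of all genes. In direction 59 were higher and 105 lower, with a median log2 difference of -0.03, which was 0.01 without wild type 2 and -0.05 without knockout 4; 54.7% of all genes were lower. The groups did not overlap for 3 higher and 4 lower genes, where 1.48% and 2.14% of all genes were separated in these directions.

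Among 25 other genes of autophagosome formation 12 were higher and 13 lower, with a median of -0.0054, or 0.06 without wild type 2 and -0.02 without knockout 4. Tecpr1, which binds autophagosomes to lysosomes, lay at 5.60 to 5.68 in wild type and 5.71 to 5.92 in knockout (difference 0.16). Atg2a, the lipid transfer protein, lay at 6.22 to 6.32 in wild type and 5.98 to 6.20 in knockout (-0.14), so that the groups did not overlap for either gene. Wdr45b, a relative of the WIPI proteins, differed by -0.23, by -0.11 without wild type 2, which stood at 6.58, and by -0.13 without knockout 4.

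Of 17 measured selective autophagy receptors outside the members 14 were lower and 3 higher, where 54.7% of all genes were lower. The median was -0.06, and -0.01 without wild type 2. Tex264, a receptor for the endoplasmic reticulum, lay at 7.25 to 7.43 in wild type and 7.07 to 7.22 in knockout, without overlap (difference -0.17, limma adjusted p = 0.861). Phb2, an inner mitochondrial membrane receptor, differed by -0.16 and Sec62, another receptor of the reticulum, by 0.13. For 13 genes of autophagosome-lysosome fusion the median was -0.0089, or 0.08 without wild type 2 and -0.05 without knockout 4. Plekhm1, an adaptor that joins Rab7 to the fusion machinery, differed by -0.19 (-0.11 without wild type 2), Rab7 itself by 0.13 and the syntaxin gene Stx7 by 0.09 (0.13 without wild type 2).

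Lysosomal hydrolases outside the members were evenly divided, 18 higher and 19 lower of 37 (median -0.01, and 0.01 without wild type 2). Ctsh, for cathepsin H, lay at 5.09 to 5.27 in wild type and 5.29 to 5.63 in knockout (difference 0.30, SE 0.09, unadjusted p = 0.0076, limma adjusted p = 0.780). It was about as large without knockout 4 (0.30). Ctss, for cathepsin S of macrophages and other antigen-presenting cells, measured 5.02, 4.90, 5.06 and 6.19 in knockouts 1 to 4 and 4.61 to 4.93 in wild type (0.57, and 0.27 without knockout 4). Ctso, for cathepsin O, lay at 6.08 to 6.35 in wild type and 5.87 to 6.06 in knockout (-0.22, limma adjusted p = 0.861). Named after their values were seen, and for their level in knockout 4, are Ctsk (cathepsin K, 6.70 there against 4.48 to 5.23 in the other arrays) and Lipa (acid lipase, 7.07 against 5.57 to 6.34). Their differences of 0.67 and 0.44 were 0.22 and 0.19 without that array.

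Lysosomal membrane and sorting genes were lower in 16 of 23 cases (median -0.07), with 2 lower at an unadjusted p under 0.05, where 54.7% of all genes were lower and 3.39% were lower at that p. Ostm1, which encodes the partner of the lysosomal chloride transporter, differed by -0.30 (unadjusted p = 0.0232, limma adjusted p = 0.859) and by -0.21 without wild type 2. Tpcn1, a calcium and sodium channel of endolysosomes, differed by -0.23, and Glmp, a glycosylated membrane protein, by -0.19. Subunits of the V-ATPase, the proton pump that acidifies the lysosome, were lower in 13 of 17 cases (median -0.07, and -0.05 without wild type 2). Atp6v0e2 lay at 7.01 to 7.08 in wild type and 6.78 to 6.96 in knockout (-0.18, limma adjusted p = 0.861), while Atp6v0d1 and Atp6v1h differed by -0.14 and -0.16 (-0.06 for Atp6v1h without wild type 2). Atp6v0d2, a subunit known from osteoclasts and macrophages and also named after its values were seen, lay at 2.39 to 2.98 in 7 arrays and at 6.04 in knockout 4, and its difference was 0.86 with that array and 0.01 without it.

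The last list joins nutrient-sensing regulators with transcription factors, namely Mitf, Tfec, Zkscan3 and the FoxO genes. Its genes were lower in 23 of 32 cases (median -0.04, and -0.01 without wild type 2), where 54.7% of all genes were lower. Zkscan3, a zinc finger repressor of autophagy genes, differed by 0.19, Tsc2, the brake on mTORC1, by -0.16, and Foxo3, the forkhead factor that drives autophagy genes in fasted muscle, by -0.17. Their limma adjusted p values lay between 0.869 and 0.876, and the groups overlapped for all 3.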

How the data were processed

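Gastrocnemius RNA of 4 wild-type and 4 knockout mice was measured on 1 array per animal. The authors deposited log2 expression values, and the submitters' processing notes name RMA and Affymetrix Expression Console; settings, version and genome build are not given in the sources used here. Of 35556 transcript clusters, 21789 carried 1 gene symbol, 1621 several, and 12146 were unnamed here. The cluster with the highest mean over the 8 arrays stood for each of 19938 genes (999 had several), with no filter on dim genes. A linear model per gene was fitted in R 4.3.3 (limma 3.58.1, moderated by eBayes), p-values were adjusted over the 19938 genes by Benjamini-Hochberg, and 0.05 was the threshold; 95% intervals come from the same fit (6 residual and 6.26 prior degrees of freedom). The steps were tested on simulated data with independent noise for each gene. Unlike the real data, these held no array that stood apart. Differences are knockout minus wild type. The number of arrays limits the precision, and no batch is named in the labels.

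The members, lists, tests and alternatives were chosen with earlier results of these data known. Values in every array are given for members at an unadjusted p under 0.05 or with separated groups, the ATG8 genes, Sqstm1, Tfeb, Tfe3, Lamp1, Lamp2, Ctsb, Ctsd and Ctsl; each further pathway list is represented by the 3 genes with the smallest p, and the macrophage list by Cd68, Gpnmb, Lgals3, Cd163 and C1qb, whatever their p. Ctsk, Lipa and Atp6v0d2 were added after their values were seen. Alternatives were other normalizations, filters on dim genes, the mean over clusters, other variance priors, array weights, a replicate block and arrays left out. Nothing in the labels says how the animals were spread over litters or days. Sequences are RefSeq's. Protein sequences of the ATG8 family were planned and not analysed here. Figures were drawn with matplotlib 3.10.9.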

Additional observations from a re-analysis of the deposited data

Results flagged for a closer look

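Among the 32 members, 4 of 64 groups of 4 arrays held an array that stood apart from the other 3 by Dixon's criterion, where chance gives about 1 in 20. Atg7 was low in knockout 2 (5.78, against 5.87 to 5.89 in the other knockouts), Atg9a low in knockout 3 (8.08, against 8.15 in the others), Atg16l1 high in wild type 2 (6.80, against 6.51 to 6.55) and Wipi1 low in wild type 1 (7.09, against 7.45 to 7.51). The other 4 such groups are of genes named for a small p or, for Atp6v0d2, after its values were seen, so that no chance rate applies to them. Wdr45b was high in wild type 2 (6.58), Stx7 high in knockout 2 (6.45, against 6.39 to 6.40), Ctss high in knockout 4 (6.19) and Atp6v0d2 high in knockout 4 (6.04).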

How the results depend on the processing

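Over 19 alternatives of each of the 32 members, 0 of 608 values passed the threshold (smallest limma adjusted p 0.608), and 25 members kept their direction in every alternative run. The count of 0 members called was the same in all alternatives, also at an adjusted p under 0.10. Members at an unadjusted p under 0.05 numbered 3 with quantile normalization or cyclic loess (Atg9a, Bnip3l and Ctsl), 4 without the dimmest 50% of genes or with a trend and robust prior (also Ulk1), 0 with array weights or without wild type 2 and knockout 4 together, 2 with the replicate block, and 0 to 3 without single arrays. Genes called over all genes numbered 11 and 13 without the dimmest 25% and 50%, 17 with a trend and robust prior, 0 with the replicate block, 1 without wild type 2 and knockout 4, 16 at an adjusted p under 0.10, and 0 to 5 without single arrays. The causes were not tested. Without single arrays the calls over all genes were 5 without wild type 1, 2 without wild type 2 and 0 without any of the other 6. Members near 0 changed sign. Wipi2 was at 0.015 with quantile normalization, 0.021 with cyclic loess and 0.0070 with array weights (-0.036 to 0.040 without single arrays), and Nbr1 at 0.041, 0.031 and 0.0012 in the same order (-0.045 to 0.025). With array weights Atg5 was at 0.027 and Rb1cc1 at 0.0059. Ctsd was at -0.012 with median centring and -0.060 to 0.039 without single arrays, where Atg5 ranged from -0.081 to 0.058, Atg7 from -0.096 to 0.0052, Rb1cc1 from -0.095 to 0.0039 and Cd163 from -0.21 to 0.069. Without wild type 2 and knockout 4, Gabarapl1 was at 0.012, Atg5 at 0.037, Ctsd at -0.043 and Cd163 at 0.078. Same-numbered wild types and knockouts deviated with correlations of 0.0939, 0.0655, 0.222 and -0.103, so the numbers were not read as pairs. The clusters of the own chromosome were an alternative chosen after the data were seen.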
